A study of Mus musculus with 12 samples.

Results

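Integrins are adhesion receptors of the cell surface, and 10 genes that encode integrin chains were followed in mouse bone marrow derived macrophages (BMDMs). They were taken by symbol from a table of 25230 genes, and all 10 were tested. Itgam, Itgal, Itgax and Itgb2 encode the beta-2 integrins of leukocytes. Itga4, Itga5, Itgav and Itgb1 encode chains of integrins that bind fibronectin. Itga6, the alpha chain of laminin receptors, and Itgb5, a beta chain that pairs with the Itgav product and mainly binds vitronectin, were kept apart from both sets.

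Polyadenylated RNA was sequenced from 4 groups of 3 libraries each: Piezo1 KO BMDMs given Candida albicans, Piezo1 KO BMDMs given PBS, WT BMDMs given C. albicans, and WT BMDMs given PBS. Piezo1 is a mechanically gated cation channel, and C. albicans is a yeast-forming fungus that can switch to hyphae. In all groups marrow cells were grown with M-CSF (50 ng/ml) for 8 days, and the submitters describe them as CD11b+F4/80+ by flow cytometry; CD11b is the product of Itgam. The treatment label of the KO PBS libraries says PBS while their titles say DMSO, so a vehicle difference cannot be told apart from genotype in PBS, or from the fungus within KO, and it bears on the interaction too. The knockout allele, any Cre driver, mouse strain and age, and the dose and duration of the fungus were not stated in the labels. Nothing says whether the 3 libraries of a group came from separate mice or cultures, so the p-values measure only the spread between libraries, which may be technical.

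An integrin is a pair of 1 alpha and 1 beta chain, and a chain without its partner is poorly transported to the surface. The Itgam and Itgb2 products form complement receptor 3 (Mac-1), which binds complement fragment iC3b and, through a separate site, fungal beta-glucan, and serves macrophages in phagocytosis and adhesion. The Itgal and Itgb2 products form LFA-1, which binds ICAM-1, and the Itgax product is CD11c. The Itga5 and Itgb1 products form the classical fibronectin receptor, the Itga4 and Itgb1 products bind fibronectin and VCAM-1, and Itgav integrins bind ligands with an RGD motif, fibronectin and vitronectin among them.

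The libraries held 16399881 to 25740743 reads in genes. Piezo1 averaged 64.9 ± 0.756 TPM in KO with C. albicans, 65.4 ± 2.72 in KO with PBS, 137 ± 8.68 in WT with C. albicans and 135 ± 4.69 in WT with PBS (SD, n = 3 each), so transcript was lower in the KO libraries but still present. The 10 macrophage markers were all tested and summed to 21591 to 21764 TPM in KO with C. albicans, 20624 to 20903 in KO with PBS, 26937 to 28727 in WT with C. albicans and 31488 to 31695 in WT with PBS. The gap was in Lyz2, the lysozyme gene: without it the other 9 summed to 12186 to 12282, 11544 to 11717, 11474 to 12046 and 11735 to 12072 TPM in the same order of groups. The dendritic cell, T or NK cell and B cell lists, whose cells also carry beta-2 integrins, summed to at most 1.40, 2.75 and 4.18 TPM in any library, with Cd209a and Cd3e listed at 0 throughout. The neutrophil list summed to 9.32 to 16 TPM, with S100a9, Ly6g and Retnlg listed at 0. Fibroblast markers summed to at most 2.56 TPM and mast cell or basophil markers to at most 2.94 TPM. Platelet markers reached 119 TPM and endothelial markers 46.8 TPM, mostly Pf4 and Kdr. WT C. albicans replicate 1 stood apart from the other libraries of its group: the chi-square of its reads against theirs, over degrees of freedom, was 14.5 to 15.3, and for all other pairs of replicates it was 1.49 to 4.40. Where a call on a chain changes without it, both values are given.

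Expression is given in TPM, a share of transcripts scaled by gene length and library total, so levels of different genes can be set side by side. Itgb2 had the highest level of the 10 chains in every group, with 473 ± 8.65, 502 ± 8.02, 476 ± 4.30 and 519 ± 11 TPM in KO with C. albicans, KO with PBS, WT with C. albicans and WT with PBS (SD, n = 3 each). Itgb1 came next, with 309 ± 1.16, 300 ± 3.98, 364 ± 8.62 and 325 ± 14.4 TPM in the same order of groups. Itga4 and Itgax came last, at 7.65 to 14.1 and 2.77 to 5.07 TPM on group average. Thus the 2 common beta chains were the most abundant of the transcripts, and the chain best known as a dendritic cell marker, CD11c, was the least abundant. The libraries of neighbouring chains in this order did not overlap in any of the 4 groups. Itgb5 stood above Itga5 in both KO groups and in WT with PBS, while Itga5 stood above Itgb5 in WT with C. albicans.

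**Figure D1:**
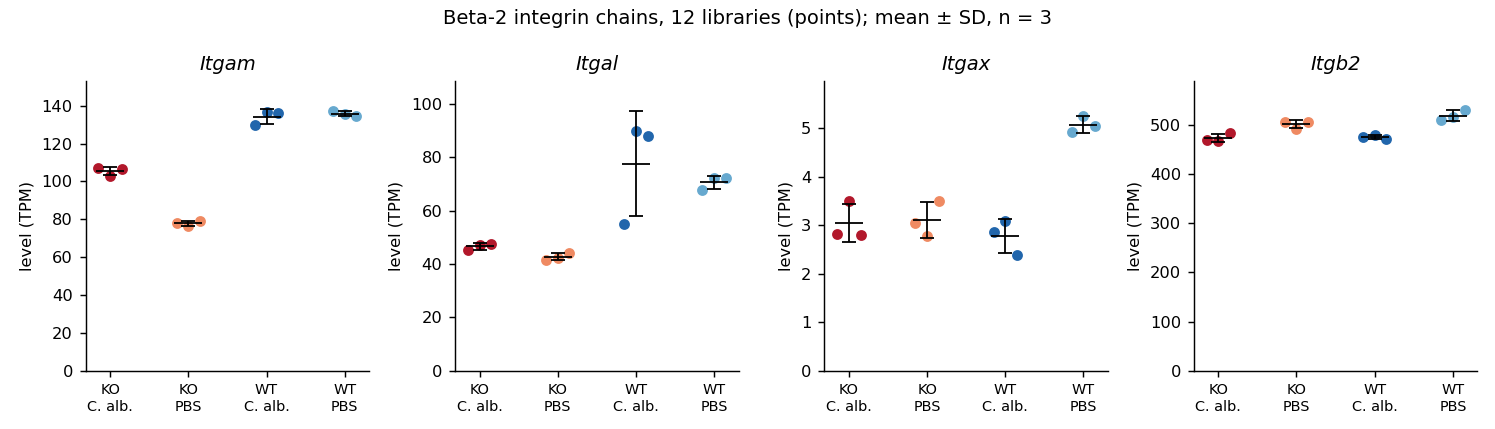
Levels of the beta-2 chains in TPM (each y axis starts at 0 and has its own scale), with points for libraries and bars for the group mean ± SD (n = 3). Itgam is lowest in the KO PBS libraries, at 76.2 to 79.0 TPM, and Itgb2 differs little between groups.

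**Figure D2:**
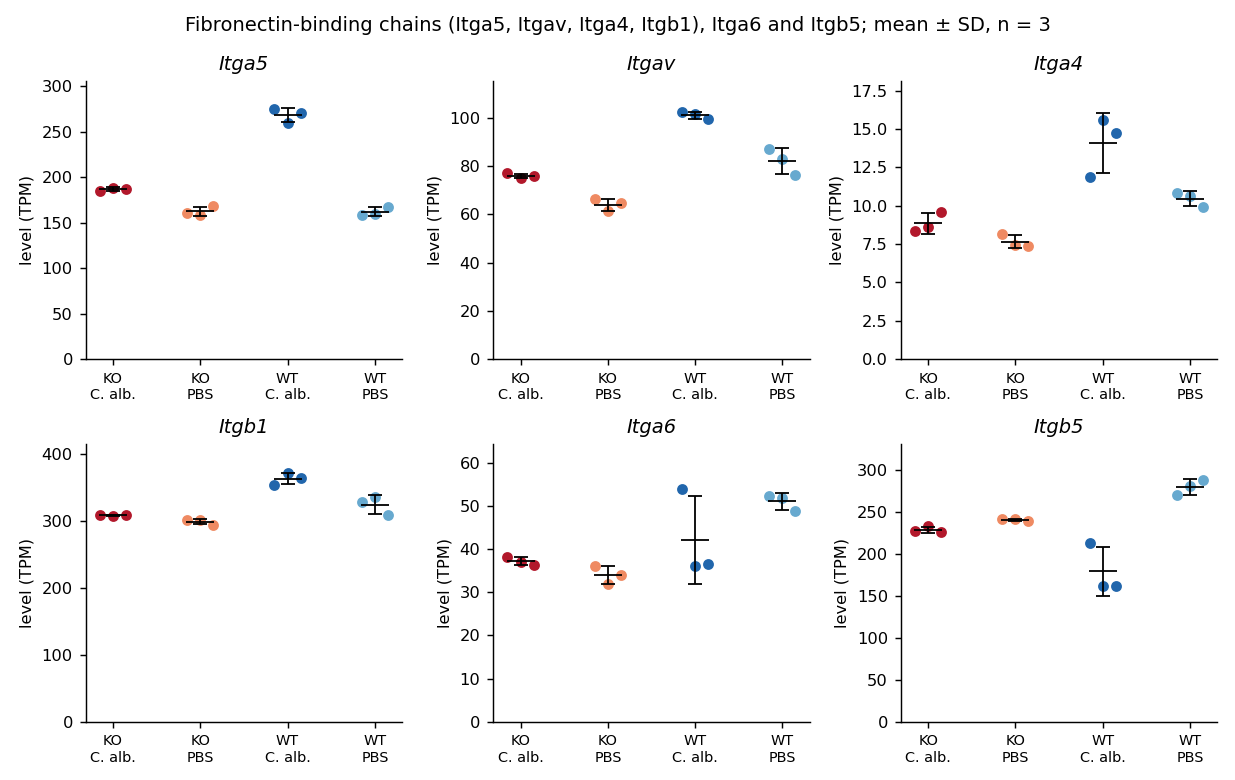
Levels of the fibronectin-binding chains and of Itga6 and Itgb5 in TPM (each y axis starts at 0 and has its own scale), with points for libraries and bars for the group mean ± SD (n = 3). Itga5 is highest in WT libraries with C. albicans, at 260 to 274 TPM, and 1 WT library with C. albicans stands apart for Itga6 and Itgb5.

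In the PBS libraries, 3 of 4 beta-2 chains and 3 of 4 fibronectin-binding chains were lower in KO than in WT, and none was higher on the TPM scale; Itga5 passed as higher in KO with median-ratio scaling (log2 fold change 0.11, adjusted p = 0.0354). With Itga6, 7 of the 10 chains were lower, where 26.2% of all 11280 tested genes were lower, 6.14% higher and 32.3% called in all. In 9 of the 10 the KO and WT libraries did not overlap, as for 46.1% of all tested genes. A change means an adjusted p under 0.05 in limma on log2(TPM + 1), and fold changes are on that scale, so those of low genes come out too small. The median log2 fold change, KO over WT, was -0.64 for the beta-2 chains and -0.23 for the fibronectin-binding chains, beside -0.08 over all tested genes. Of the genes called, 19.0% were higher, and 50.2% were with median-ratio and 41.1% with upper-quartile scaling in place of TPM. In bulk RNA, fewer cells that express a gene and less of its RNA per cell cannot be told apart.

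Itgam, the alpha chain of complement receptor 3, had 78.2, 76.2 and 79.0 TPM in KO with PBS, against 137, 136 and 134 TPM in WT with PBS. Every KO library lay far below every WT library, and the log2 fold change was -0.80 (SE 0.03, adjusted p = 2.1e-08). Among all tested genes this change was at percentile 1.1. Itgal, the alpha chain of LFA-1, had 41.7, 42.2 and 44.2 TPM in KO with PBS and 67.8, 72.1 and 72.2 TPM in WT with PBS. Here too the groups did not overlap (log2 fold change -0.71, SE 0.13, adjusted p = 0.0016). Itgax was scarce, with 3.05, 2.77 and 3.50 TPM in KO with PBS and 4.91, 5.25 and 5.05 TPM in WT with PBS, from 95 to 207 reads per library over all groups. All 3 KO libraries were below all 3 WT libraries (log2 fold change -0.57, SE 0.11, adjusted p = 0.00171). Their shared beta chain behaved otherwise: Itgb2 had 506, 492 and 506 TPM in KO with PBS and 509, 517 and 531 TPM in WT with PBS. The libraries did not overlap, but the log2 difference of -0.05 (95% interval -0.11 to 0.01, adjusted p = 0.186) did not pass, and its sign turned with median-ratio (0.051) and upper-quartile (0.026) scaling.

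Markers of cells differed between these groups in both directions. Of the 10 macrophage markers 5 were lower and 1 was higher in KO over WT with PBS, beside 26.2% and 6.14% of all tested genes. Lyz2 was at -1.11 (adjusted p = 1.2e-10) and Adgre1, the F4/80 gene, at -0.33 (adjusted p = 3.6e-04). The higher one was Cd68, at 0.31 (adjusted p = 2.7e-05). The B cell markers summed to 1.44 to 1.86 TPM in KO with PBS and 2.86 to 4.18 TPM in WT with PBS. In the same libraries the T or NK cell markers summed to 0.968 to 1.28 TPM in KO and 1.37 to 2.75 TPM in WT, and the dendritic cell markers to 0.162 to 0.359 TPM in KO and 0.725 to 1.40 TPM in WT. Neutrophil markers went the other way, summing to 12.3 to 16 TPM in KO and 9.32 to 9.45 TPM in WT, with S100a8 (0.89, adjusted p = 0.00817) and Mmp8 (0.33, adjusted p = 0.011) higher in KO. Beside 67.8 to 72.2 TPM of Itgal and 134 to 137 TPM of Itgam in WT with PBS these sums were small, and their part in the result was not tested.

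The 3 beta-2 alpha chains together summed to 124 ± 2.81 TPM in KO with PBS and 212 ± 1.51 TPM in WT with PBS (SD, n = 3 each). Itgb2 transcript was 4.06 ± 0.0623 times that sum in KO with PBS and 2.45 ± 0.0480 times in WT with PBS. The ratio lies within a library, so scaling does not move it. It was not corrected for the gene length trend or for the exons Itgam shares with another gene model, both given below. In both groups Itgam made up nearly the same share of the alpha chains, 63.0% ± 0.616 in KO with PBS and 64.2% ± 1.04 in WT with PBS.

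Among the fibronectin-binding chains, Itga5, the alpha chain of the classical fibronectin receptor, had 161, 159 and 168 TPM in KO with PBS and 158, 159.7 and 168 TPM in WT with PBS. These libraries interleaved, and the log2 difference of 0.01 (95% interval -0.07 to 0.08, adjusted p = 0.908) did not pass. It passed as higher in KO with median-ratio scaling (0.11, adjusted p = 0.0354) and with voom on recovered reads (0.10, adjusted p = 0.0345). Itgav, the alpha chain of RGD-binding receptors, had 66.2, 61.3 and 64.6 TPM in KO with PBS and 87.0, 83 and 76.2 TPM in WT with PBS. Its KO libraries were all below the WT ones (log2 fold change -0.35, SE 0.05, adjusted p = 1.6e-04). Itga4, which with Itgb1 binds VCAM-1 and fibronectin, had 7.34 to 8.14 TPM in KO with PBS and 9.94 to 10.8 TPM in WT with PBS (log2 fold change -0.41, SE 0.09, adjusted p = 0.00469). Itgb1, their common beta chain, averaged 300 ± 3.98 TPM in KO with PBS and 325 ± 14.4 TPM in WT with PBS (log2 fold change -0.12, SE 0.03, adjusted p = 0.0196). That call was lost in 7 of 21 alternative analyses and its sign turned in 1 more. Itga6, the laminin-binding chain, fell to 34.0 ± 2.11 TPM in KO with PBS, against 51.0 ± 1.88 TPM in WT with PBS (log2 fold change -0.57, SE 0.12, adjusted p = 0.0024). Itgb5 had 240 to 241 TPM in KO with PBS and 269.8 to 288 TPM in WT with PBS, without overlap but just short of the threshold (log2 difference -0.22, adjusted p = 0.0549); without WT C. albicans replicate 1 in the fit, the adjusted p was 7.6e-05.

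Gene length moved with this comparison. Across all tested genes, longer genes had lower KO over WT fold changes in PBS (Spearman's rho -0.46 across genes, which are not independent replicates) and in C. albicans (-0.40), while the responses to the fungus showed almost no such trend (0.02 in WT and -0.04 in KO). The integrin chains are of median length or longer, with Itgb2 at percentile 50.4, Itgam at 77.2 and Itga4 at 97.3 of gene length. With the trend removed, the log2 fold changes in PBS of Itgam (-0.63, adjusted p = 2.8e-07), Itgal (-0.53, adjusted p = 0.0202), Itgax (-0.40, adjusted p = 0.0263) and Itga6 (-0.37, adjusted p = 0.0485) still passed. Those of Itga4 (-0.11, adjusted p = 0.452), Itgav (-0.12, adjusted p = 0.115) and Itgb1 (0.02, adjusted p = 0.747) did not, and Itga5 became higher in KO (0.16, adjusted p = 0.0105). So the beta-2 alpha chains and Itga6 were lower in KO beyond the trend, while for the fibronectin-binding chains the call in PBS depended on it.

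**Figure D3:**
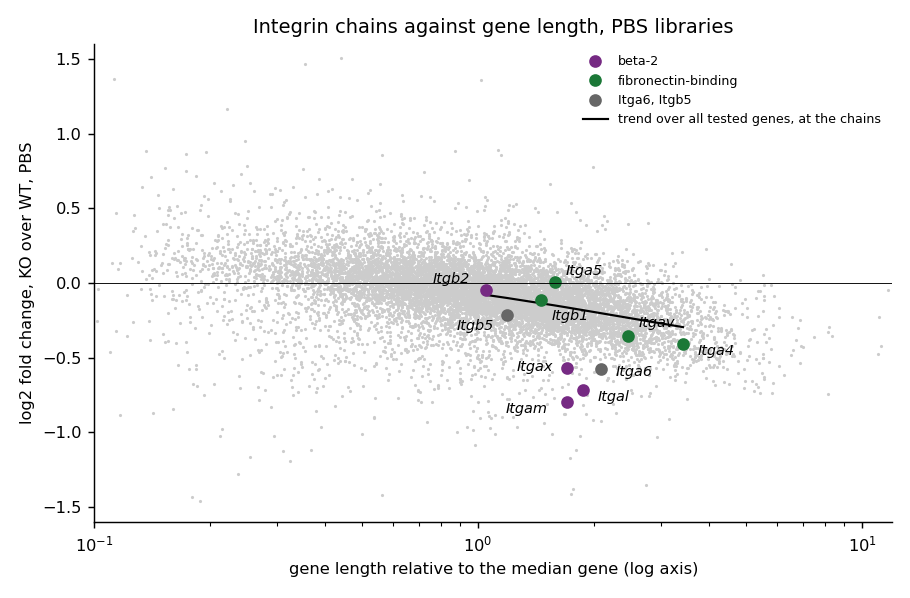
Gene length relative to the median gene with any reads (x, log axis) against log2 fold change of KO over WT in PBS (y). Grey points are tested genes and coloured points are the chains. The line joins the values of the trend over all tested genes at the lengths of the chains. Itgam, Itgal, Itgax and Itga6 lie well below the line; 252 shorter genes fall outside the axis and 11028 are drawn.

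In WT macrophages given C. albicans, all 4 fibronectin-binding chains were higher than with PBS. Of the beta-2 chains 2 were lower and none was higher, and Itgal was higher without WT C. albicans replicate 1. That the sets differ was not tested. Of all tested genes 16.1% were higher and 28.3% lower, 44.4% in all. Of those called, 36.2% were higher, and 55.5% were with median-ratio and 38.6% with upper-quartile scaling. The median log2 fold change, C. albicans over PBS, was 0.34 for the fibronectin-binding chains and -0.07 for the beta-2 chains, beside -0.07 over all tested genes. Counting Itgb5, which fell, 7 of the 10 chains changed, 4 higher and 3 lower, and in 7 the libraries did not overlap, beside 50.9% of all tested genes.

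Itga5 had 274, 259.9 and 271 TPM in WT with C. albicans, against 158, 159.7 and 168 TPM in WT with PBS. The groups were far apart (log2 fold change 0.73, SE 0.03, adjusted p = 4.9e-09), at a ratio of 1.66 and percentile 96.3 of all tested genes. Itgav had 102, 102 and 99.4 TPM in WT with C. albicans and 87.0, 83 and 76.2 TPM in WT with PBS (log2 fold change 0.30, SE 0.05, adjusted p = 2.6e-04). Itga4 had 11.8, 15.6 and 14.8 TPM in WT with C. albicans and 10.8, 10.6 and 9.94 TPM in WT with PBS (log2 fold change 0.39, SE 0.09, adjusted p = 0.00445). Itgb1 had 354, 372 and 365 TPM in WT with C. albicans and 329, 336 and 309 TPM in WT with PBS (log2 fold change 0.16, SE 0.03, adjusted p = 0.00173). In each of the 4 chains every C. albicans library was above every PBS library, and each call held in all 21 alternative analyses. The summed alpha chains Itga4, Itga5 and Itgav stood at 384 ± 5.95 TPM in WT with C. albicans and 254 ± 1.55 TPM in WT with PBS.

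The beta-2 chains did not move together in WT. Itgam had 129.8, 137 and 136 TPM in WT with C. albicans and 137, 136 and 134 TPM in WT with PBS; the libraries overlapped, and the log2 difference of -0.02 (95% interval -0.09 to 0.06, adjusted p = 0.698) did not pass. Itgax fell to 2.86, 3.08 and 2.38 TPM in WT with C. albicans, against 4.91, 5.25 and 5.05 TPM in WT with PBS (log2 fold change -0.69, SE 0.11, adjusted p = 2.6e-04), with no overlap. Itgb2 was lower (log2 fold change -0.12, SE 0.03, adjusted p = 0.00224), a call lost with median-ratio scaling (-0.04, adjusted p = 0.228) and with voom on recovered reads (-0.04, adjusted p = 0.256). Itgal had 54.9, 89.8 and 88.2 TPM in WT with C. albicans and 67.8, 72.1 and 72.2 TPM in WT with PBS. Replicate 1 lay below all PBS libraries and the other two above them; the log2 fold change was 0.10 (adjusted p = 0.573), and 0.33 (adjusted p = 6.1e-05) without that replicate.

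The same library set the spread of Itga6 and Itgb5. Itga6 had 53.9, 36.0 and 36.5 TPM in WT with C. albicans and 52.3, 51.9 and 48.9 TPM in WT with PBS, so replicate 1 sat above every PBS library and the others below all of them. The log2 fold change was -0.29 (adjusted p = 0.0553), and -0.48 (adjusted p = 1.5e-05) without it. Itgb5 had 213, 162 and 162 TPM in WT with C. albicans and 269.8, 282 and 288 TPM in WT with PBS. All C. albicans libraries were lower here (log2 fold change -0.65, SE 0.08, adjusted p = 3.4e-05), by -0.78 (adjusted p = 9.1e-10) without replicate 1. What set this library apart was not tested.

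The authors' deposited table holds log2 fold changes for this comparison from reads scaled by size factors. In the authors' deposited table Itga5 was at 0.81 (adjusted p = 7.6e-104), Itgav at 0.38 (adjusted p = 9.1e-17), Itga4 at 0.51 (adjusted p = 2.9e-07) and Itgb1 at 0.25 (adjusted p = 9.0e-10). Itgax (-0.78, adjusted p = 3.9e-06) and Itgb5 (-0.57, adjusted p = 1.1e-16) were lower in the authors' deposited table, while Itgam (0.06, adjusted p = 0.221), Itgal (0.22, adjusted p = 0.353), Itgb2 (-0.04, adjusted p = 0.315) and Itga6 (-0.20, adjusted p = 0.28) did not pass there.

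In KO macrophages 3 of the 10 chains were higher with C. albicans than with PBS, Itgam, Itga5 and Itgav, and none was lower. Without WT C. albicans replicate 1 in the fit, Itgb2 passed as lower (-0.08, adjusted p = 0.0384). Over all tested genes 3.95% were higher, 3.15% lower and 7.10% called, beside 44.4% in WT. The libraries of 9 chains did not overlap, as was so for 33.0% of all tested genes. Of those called, 55.7% were higher, and 78.0% were with median-ratio and 64.6% with upper-quartile scaling. Itgam had 107, 103 and 106 TPM in KO with C. albicans and 78.2, 76.2 and 79.0 TPM in KO with PBS. The groups were well apart (log2 fold change 0.43, SE 0.03, adjusted p = 2.2e-06). Itga5 had 185, 188 and 187 TPM in KO with C. albicans and 161, 159 and 168 TPM in KO with PBS, also apart (log2 fold change 0.20, SE 0.03, adjusted p = 0.00329). Itgav had 77.0, 75.2 and 75.8 TPM in KO with C. albicans and 66.2, 61.3 and 64.6 TPM in KO with PBS (log2 fold change 0.24, SE 0.05, adjusted p = 0.00713). The other 7 chains had log2 differences of -0.08 (Itgb2) to 0.19 (Itga4), and none passed with all libraries in the fit, while Itgb2 (adjusted p = 0.0781) passed without WT C. albicans replicate 1, as above, and with only the KO libraries (adjusted p = 0.0458). The DMSO in the KO PBS titles goes with treatment here. The median over the fibronectin-binding chains was 0.19 and over the beta-2 chains 0.05, beside -0.04 over all tested genes.

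The response in KO minus the response in WT, the interaction, passed for 4 of the 10 chains, 3 above and 1 below 0. Over all tested genes 7.53% lay above, 6.33% below and 13.9% were called. Of those called, 54.3% lay above 0, and 41.2% did with median-ratio and 59.2% with upper-quartile scaling. Of the beta-2 chains Itgam stood at 0.45 (SE 0.05, adjusted p = 6.8e-05) and Itgax at 0.66 (SE 0.15, adjusted p = 0.0128), and of the fibronectin-binding chains Itga5 stood at -0.53 (SE 0.05, adjusted p = 2.8e-05). The vehicle named in the KO PBS titles cannot be told apart from these differences. Itgb5 was above at 0.58 (SE 0.11, adjusted p = 0.00483). For Itgam the response passed in KO and was near 0 in WT, whereas Itga5 rose in both genotypes and rose less in KO. For Itgax and Itgb5 the fall in WT had no counterpart past the threshold in KO, where their log2 differences were -0.02 (95% interval -0.26 to 0.21) and -0.07 (95% interval -0.25 to 0.10). These 4 calls held in all 20 alternative analyses of the interaction. Without WT C. albicans replicate 1 the number was 8, 4 on each side. The added chains were Itga6 (0.61, adjusted p = 7.9e-05), Itgal (-0.20, adjusted p = 0.0255), Itga4 (-0.31, adjusted p = 0.0467) and Itgb1 (-0.14, adjusted p = 0.0437). With all libraries Itga6 was at 0.42 (adjusted p = 0.109) and Itgal at 0.03 (adjusted p = 0.946). Itga4 was then at -0.20 (adjusted p = 0.348) and Itgb1 at -0.12 (adjusted p = 0.114). The median was 0.25 over the beta-2 chains and -0.16 over the fibronectin-binding chains, beside 0.02 over all tested genes; that the sets differ was not tested.

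**Figure D4:**
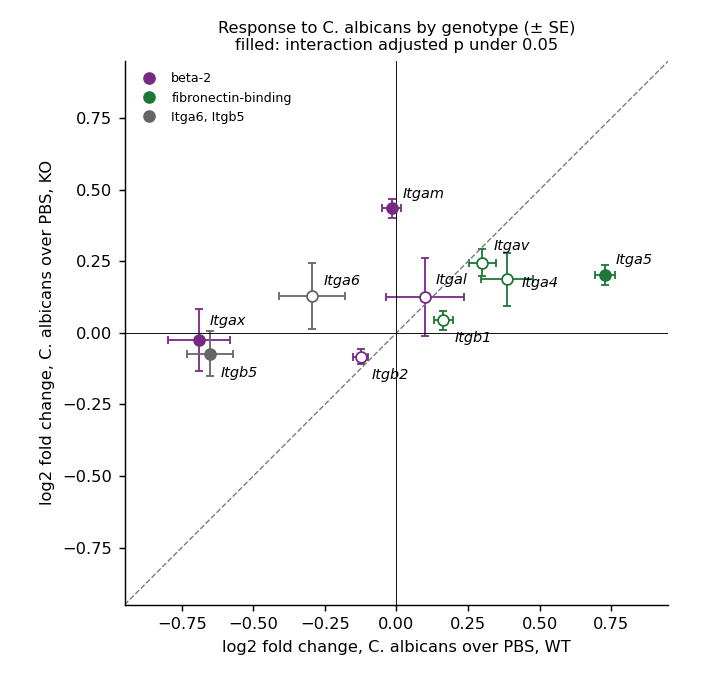
Log2 fold change of C. albicans over PBS in KO against that in WT for each chain, with bars for ± SE, filled points for an interaction past the threshold and a dashed diagonal where both responses are equal. Itgam lies above the diagonal (0.43 in KO, -0.02 in WT) and Itga5 below it (0.20 in KO, 0.73 in WT).

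With C. albicans in both genotypes, all 4 fibronectin-binding chains were lower in KO than in WT, and so were Itgam and Itgal, while Itgb5 was higher. That made 6 chains lower and 1 higher, where 27.5% of all tested genes were lower, 12.4% higher and 39.9% called. In 7 chains the libraries did not overlap, beside 49.3% of all tested genes. Of those called, 31.1% were higher, and 46.9% were with median-ratio and 52.4% with upper-quartile scaling. The median log2 fold change was -0.46 for the fibronectin-binding chains and -0.18 for the beta-2 chains, beside -0.05 over all tested genes. This comparison shares libraries with the responses above.

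Itga5 had 185, 188 and 187 TPM in KO with C. albicans and 274, 259.9 and 271 TPM in WT with C. albicans (log2 fold change -0.52, SE 0.03, adjusted p = 3.8e-07). The genotypes, which overlapped for this chain in PBS, did not overlap here. Itga4 had 8.33, 8.61 and 9.60 TPM in KO with C. albicans and 11.8, 15.6 and 14.8 TPM in WT with C. albicans (log2 fold change -0.61, adjusted p = 2.1e-04). Itgav (-0.41, adjusted p = 2.8e-05) and Itgb1 (-0.24, adjusted p = 1.3e-04) were lower as well. Itgam had 107, 103 and 106 TPM in KO with C. albicans and 129.8, 137 and 136 TPM in WT with C. albicans (log2 fold change -0.34, adjusted p = 7.0e-06). Itgal was at -0.69 (adjusted p = 0.00139), and at -0.92 (adjusted p = 1.4e-08) without WT C. albicans replicate 1. Itgb5 had 227, 233 and 226 TPM in KO with C. albicans and 213, 162 and 162 TPM in WT with C. albicans (log2 fold change 0.36, adjusted p = 0.00288). All 7 calls also passed with the length trend removed. Itgb2 (-0.01, adjusted p = 0.842) did not pass, and its sign turned with median-ratio (0.054) and upper-quartile scaling, where it passed as higher in KO (0.074, adjusted p = 0.0418). Itgax (0.10, adjusted p = 0.509) and Itga6 (-0.15, adjusted p = 0.321) did not pass either.

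**Figure D5:**
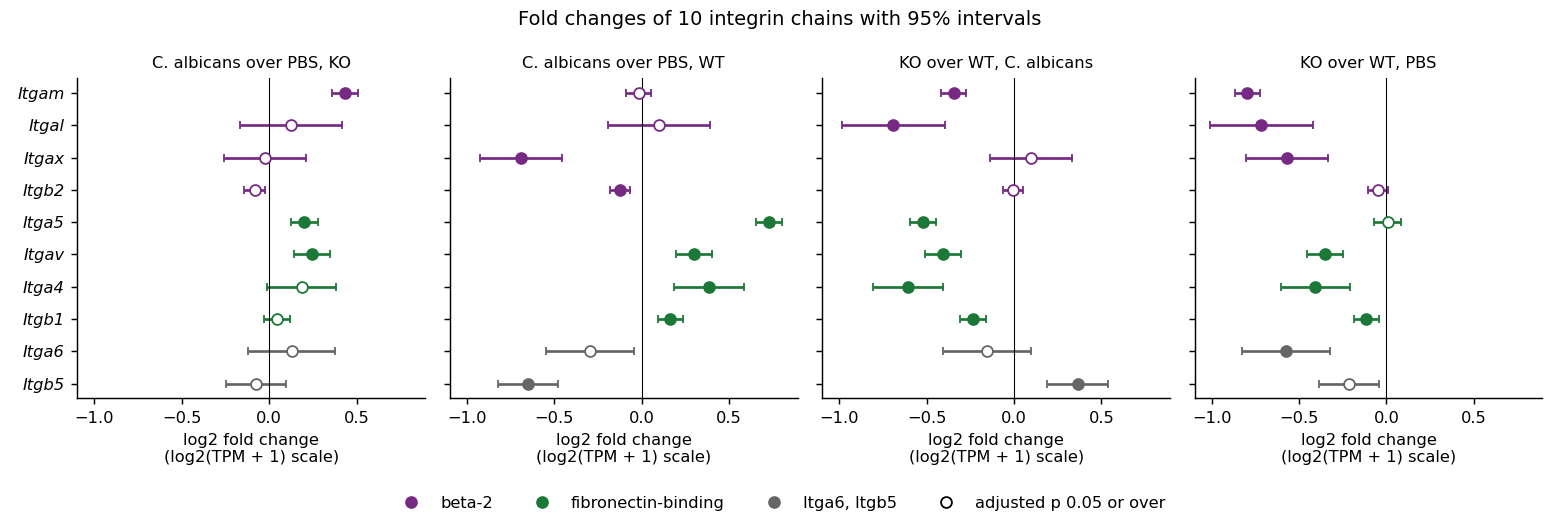
Log2 fold changes of the 10 chains in the 4 pairwise comparisons, with bars for the 95% interval and filled points for an adjusted p under 0.05. The fibronectin-binding chains lie above 0 for WT C. albicans over PBS and below 0 for KO over WT with C. albicans.

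Set against each other within a library, the sums of the fibronectin-binding alpha chains and of the beta-2 alpha chains stood at a ratio of 1.75 ± 0.0185 in KO with C. albicans, 1.90 ± 0.0192 in KO with PBS, 1.8 ± 0.233 in WT with C. albicans and 1.2 ± 0.0157 in WT with PBS (SD, n = 3 each). The WT PBS libraries were thus the ones apart. Without replicate 1 the ratio in WT with C. albicans averaged 1.67, below that in KO with C. albicans. Itga5 over Itgam was also lowest in WT with PBS, with 1.77 ± 0.0516 in KO with C. albicans, 2.09 ± 0.0341 in KO with PBS, 2.0 ± 0.108 in WT with C. albicans and 1.19 ± 0.0486 in WT with PBS. In KO with PBS the ratio was high with Itgam low and Itga5 near the WT level in TPM, and in WT with C. albicans with Itga5 high and Itgam at the PBS level.

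On the GRCm38 assembly (GENCODE M21 annotation), Itgal (chr7:127296260-127335138), Itgam (chr7:128062640-128118491) and Itgax (chr7:128129547-128150657) lie on the plus strand of chromosome 7, and the end of Itgam is 11055 bases from the start of Itgax. Itgb2 lies at chr10:77530252-77565708, Itgb1 at chr8:128685654-128733200, Itgb5 at chr16:33829665-33949338 and Itga5, on the minus strand, at chr15:103344286-103366763. Itga6 (chr2:71745616-71858416), Itga4 (chr2:79255426-79333123) and Itgav (chr2:83724397-83806916) lie on chromosome 2. Exons of Itgam share 3450 bases with the same-strand model Gm49368, those of Itga4 share 1124 bases with Cerkl on the other strand, and those of Itgav share 634 bases with Gm13684 on the other strand. For Itgam this is 3450 of 5024 exonic bases, and strand cannot separate reads of 2 models on the same strand. For Itga4 and Itgav the labels do not state whether counting used strand. Reads in all these stretches are therefore uncertain, and Cerkl itself had 0.829 to 2.38 TPM.

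Promoter sequence of 7 of the 10 chains was matched in RefSeq (GRCm38.p6). The 250 bases before the RefSeq start of Itgam (chr7:128062390-128062639, plus strand), Itgax (chr7:128129300-128129549, plus strand) and Itga5 (chr15:103366792-103367041, minus strand) are shown because Itgam and Itgax are neighbours with different responses and Itga5 rose most of the chains in WT. Capitals mark GAGGAA or its reverse complement, the purine-rich core bound by the myeloid factor PU.1.
Itgam: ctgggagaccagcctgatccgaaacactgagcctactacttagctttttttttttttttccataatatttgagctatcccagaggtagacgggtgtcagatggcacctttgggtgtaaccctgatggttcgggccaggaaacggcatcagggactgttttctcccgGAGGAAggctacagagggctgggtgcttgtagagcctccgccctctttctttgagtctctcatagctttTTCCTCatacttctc
Itgax: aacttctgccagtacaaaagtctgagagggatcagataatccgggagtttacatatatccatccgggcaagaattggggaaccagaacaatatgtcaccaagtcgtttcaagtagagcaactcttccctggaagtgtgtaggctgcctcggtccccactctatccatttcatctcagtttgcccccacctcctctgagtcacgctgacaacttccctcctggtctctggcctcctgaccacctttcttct
Itga5: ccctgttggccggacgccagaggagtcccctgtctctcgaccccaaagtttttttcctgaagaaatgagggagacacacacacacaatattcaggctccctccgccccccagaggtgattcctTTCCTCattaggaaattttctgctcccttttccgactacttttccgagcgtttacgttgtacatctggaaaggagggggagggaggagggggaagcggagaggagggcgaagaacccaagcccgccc
GAGGAA, read on both strands, occurred 2 times before Itgam, 0 times before Itgax and 1 time before Itga5. It occurred in 4 of the 7 chains' windows, beside 23.3% of 32851 windows of the same length. GGGCGG, the box bound by Sp1, occurred in 5 of the 7, beside 32.7%. The motifs can share at most 1 base, and a match is a description of letters only.

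The genes that work with integrins moved in both directions. The gene length trend was removed only for the 10 chains, so the KO over WT values of other genes are given without that correction. Of 27 tested activators and adaptors, which link integrin tails to actin, 10 were lower and 0 higher in KO over WT with PBS, 13 were lower and 4 higher in KO over WT with C. albicans, and 9 rose and 9 fell with C. albicans in WT. Over all tested genes, the shares were 26.2% lower and 6.14% higher, 27.5% lower and 12.4% higher, and 16.1% higher and 28.3% lower in these 3 comparisons. In KO, 1 of the 27, Nisch, fell with C. albicans, beside 3.15% of all tested genes. Flna, an actin cross-linker that binds integrin tails, had log2 fold changes of -0.32 in KO over WT with PBS (adjusted p = 7.7e-05), -0.63 in KO over WT with C. albicans (adjusted p = 2.2e-07) and 0.41 for C. albicans in WT (adjusted p = 3.5e-06). Vcl, the adaptor vinculin, had -0.31 (adjusted p = 2.6e-04), -0.59 (adjusted p = 1.1e-06) and 0.40 (adjusted p = 1.6e-05) in the same order. Tln1, which encodes the integrin activator talin, was lower in KO with PBS (-0.25, adjusted p = 5.0e-04) and with C. albicans (-0.44, adjusted p = 3.9e-06). The interaction passed for 9 of the 27, 2 above and 7 below 0, beside 7.53% and 6.33% of all tested genes. The list's median log2 fold change was -0.12 in KO over WT with PBS, beside -0.08 over all tested genes. In KO over WT with C. albicans it was -0.14 beside -0.05, and for C. albicans in WT -0.08 beside -0.07.

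Of 12 tested kinases and signal proteins that act below integrins in phagocytes, 9 were lower and 0 higher in KO over WT with PBS, and again 9 and 0 with C. albicans, where 26.2% and 27.5% of all tested genes were lower. In WT, 7 rose and 4 fell with C. albicans, beside 16.1% and 28.3% of all tested genes, and in KO 3 rose and 0 fell, beside 3.95% and 3.15%. Lcp2, the adaptor SLP-76, rose by a log2 fold change of 0.89 in WT (adjusted p = 9.5e-09) and 0.54 in KO (adjusted p = 4.9e-06), with an interaction of -0.35 (adjusted p = 0.00354). Src, a tyrosine kinase, was at 0.98 in WT (adjusted p = 1.2e-07) and 0.28 in KO (adjusted p = 0.0192), with an interaction of -0.70 (adjusted p = 3.3e-04). Syk, the kinase that carries signals from beta-2 integrins and from fungal receptors, rose in WT (0.30, adjusted p = 1.9e-05) and had a log2 difference of 0.00 in KO (adjusted p = 0.996). The interaction passed for 4 of the 12, 1 above and 3 below 0, beside 13.9% of all tested genes. The list's median was -0.26 in KO over WT with PBS and -0.38 with C. albicans, beside -0.08 and -0.05 over all tested genes.

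Ligands and counter-receptors were mostly low, with 12 of 27 tested. In KO over WT with PBS 4 were higher and 3 lower, and with C. albicans 3 were higher and 5 lower, beside 32.3% and 39.9% of all tested genes called. In WT 5 rose and 2 fell with C. albicans, and in KO 1 rose and 1 fell, beside 44.4% and 7.10% called. The interaction passed for 5, 1 above and 4 below 0, beside 13.9%. Icam1, the ligand of LFA-1 and complement receptor 3, averaged 148 TPM in KO with C. albicans, 61.2 in KO with PBS, 297 in WT with C. albicans and 75.3 in WT with PBS. Its log2 fold change with C. albicans was 1.26 in KO (adjusted p = 4.7e-09) and 1.96 in WT (adjusted p = 1.5e-11), with an interaction of -0.71 (adjusted p = 5.9e-05). Vcam1, a ligand of the Itga4 product, averaged 3.49 TPM in KO with C. albicans, 3.12 in KO with PBS, 9.56 in WT with C. albicans and 2.89 in WT with PBS. Vcam1 rose in WT (1.39, adjusted p = 6.0e-05), and the interaction was -1.26 (adjusted p = 0.0064). Its SD in WT with C. albicans was 3.2 TPM (n = 3), so that group was spread widely. Thbs1, the 1 above 0, went the other way. It fell in WT (-1.09, adjusted p = 5.8e-06), with an interaction of 0.94 (adjusted p = 0.00158). Fn1, the fibronectin gene, was not among those that reached the level tested.

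Of 12 tested membrane partners, 4 were higher and 1 lower in KO over WT with PBS, and 5 higher and 5 lower with C. albicans. Over all tested genes 6.14% were higher and 26.2% lower with PBS, and 12.4% and 27.5% with C. albicans. In WT 6 rose and 4 fell with C. albicans, beside 16.1% and 28.3% of all tested genes, and in KO 6 rose and 0 fell, beside 3.95% and 3.15%. The interaction passed for 6, 1 above and 5 below 0, beside 13.9% of all tested genes. Sdc4, a proteoglycan that binds fibronectin beside the Itga5 and Itgb1 receptor, rose by 0.74 in KO (adjusted p = 5.7e-09) and 1.08 in WT (adjusted p = 3.0e-11). Plaur, the urokinase receptor, which associates with beta-2 and beta-1 integrins, rose by 0.78 in KO (adjusted p = 2.0e-05) and 1.70 in WT (adjusted p = 2.3e-09), with an interaction of -0.92 (adjusted p = 1.5e-04). Cav1 was higher in KO over WT with PBS (1.36, adjusted p = 2.6e-05) and lower with C. albicans (-0.83, adjusted p = 5.1e-04). Its interaction was -2.18 (adjusted p = 2.4e-05), and its SD in WT with C. albicans was 12.2 TPM around 46.0.

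Over the 12 libraries the chains fell into patterns that crossed the sets. Log2 levels of Itgb1 had a Pearson correlation of 0.96 with Itga4, 0.94 with Itgav and 0.80 with Itga5, its partners, and 0.34 with Itga6. Itgb2 had -0.01 with Itgam, 0.11 with Itgal and 0.78 with Itgax, its alpha chains. Itgb5 had -0.56 with Itgav, its partner, and -0.86 with Itga5. Across the sets, Itgal had 0.90 with Itga4, and Itgam had 0.87 with Itgav. These are descriptions over 12 libraries in 4 groups. The tested genes most like Itgam were Mid1 (0.97), Cemip2, Slc15a3, Zbtb26 and Trim56, and those most like Itgb2 were Prr12 (0.97), Ddx55, Mapk7, Bcas3 and Ranbp3. Itgb1 was most like Kpna4 (0.99), Mtdh, Hif1a, Peli1 and Actr2, and Itga5 was most like Zfp263 (0.99), Mdm2, Tnfaip2, Cgnl1 and Tnip1.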

How the data were processed

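The genotype and treatment labels set the groups. The submitters' processing notes name the mm10 build, STAR 2.7.5a, DESeq2 1.34.0, cutadapt 2.6 and CASAVA 1.8, and they name no read counter, strand setting or annotation. The authors deposited TPM per gene and library. The same table holds the authors' mean signal, log2 fold change with standard error, Wald score and p-values for 1 comparison, deposited under DESeq2 names per the file headers. By its values this comparison is C. albicans over PBS in WT, since log2 ratios of scaled reads differed from it by a median of 0.00117 over 11226 genes.

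Log2(TPM + 1) was fitted with limma 3.58.1 (R 4.3.3), with 1 mean per group over all 12 libraries, 8 residual degrees of freedom and a variance trend. A gene was tested if 3 or more libraries had at least 1 TPM (11280 genes). P-values are two-sided and Benjamini-Hochberg adjusted over these within a comparison, with a threshold of 0.05. Genes without a symbol (28, 0.00132% of reads) were left out, and 8075 genes had no read. Whole reads were recovered from TPM and the deposited mean signal: 100% of 124584 values lay within 0.01 of a whole number. Relative gene lengths came from the same values. The fit was also run on simulated data, which held no outlying library and no gene length trend and so cannot speak to either. The number of alternatives was 21, voom on the recovered reads among them, chosen after seeing the data. The length trend is a loess curve (span 0.5) of log2 fold change on log gene length.

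The chains, gene lists and markers were chosen with earlier results of these data known, so their counts are descriptions. All 10 chains are named, with Piezo1, up to 4 genes of each list by smallest p, from which the examples were picked, and the 5 genes most correlated with 4 of the chains.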

Additional observations from a re-analysis of the deposited data

Results flagged for a closer look

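The response to C. albicans differed between KO and WT macrophages for 4 of the 10 chains, by the interaction test in limma. Over all tested genes 13.9% were called by this test, 7.53% above and 6.33% below 0. For Itgam, the complement receptor 3 alpha chain, the response in KO minus that in WT was 0.45 on the log2 scale (adjusted p = 6.8e-05), and all 3 KO libraries with C. albicans were above all 3 with PBS. For Itgax, the CD11c chain, it was 0.66 (adjusted p = 0.0128), at 2.38 to 5.25 TPM over the 12 libraries. For Itga5, the fibronectin receptor alpha chain, it was -0.53 (adjusted p = 2.8e-05), with the C. albicans libraries above the PBS libraries in both genotypes. For Itgb5 it was 0.58 (adjusted p = 0.00483), and 0.71 (adjusted p = 2.2e-07) without WT C. albicans replicate 1. DMSO is named in the KO PBS titles only, so a vehicle difference cannot be told apart from the response in KO or from these 4 values. Lyz2, the macrophage lysozyme gene, was at 9403 to 9482 TPM in KO with C. albicans, 8948 to 9269 in KO with PBS, 15462 to 16682 in WT with C. albicans and 19416 to 19960 in WT with PBS, and its part in these values was not tested.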

How the results depend on the processing

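Precision is that of 3 libraries per group, and 95 to 207 reads per library for Itgax. Over the 21 alternatives (20 for the interaction), the number of chains called stayed within 1.5 times the reported one in every case but 1. Without WT C. albicans replicate 1 the interaction was called for 8 chains, and the range over left-out libraries was 4 to 8. With voom on recovered reads and all libraries it was called for 6 chains. Itga6 (0.39, adjusted p = 0.0412) and Itgb1 (-0.16, adjusted p = 0.0269) were among them. Of the values of single chains, 982 kept their direction and side of the threshold, 11 lost and 17 gained a call, and 30 changed sign, all in differences that had not passed but 1 (Itgb1). Except where stated, the cause was not tested.

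The fibronectin-binding median for KO over WT in PBS was -0.13 with median-ratio scaling, -0.16 with upper-quartile scaling, -0.046 with the length trend removed, and -0.28 to -0.21 over left-out libraries. For KO over WT with C. albicans it was -0.40, -0.38 and -0.23 under the first 3 of these. For C. albicans in WT it was 0.42 with median-ratio scaling and 0.30 to 0.39 over left-out libraries, in KO 0.23 and 0.17 to 0.22, and for the interaction -0.20 and -0.22 to -0.12. With the length trend removed, the beta-2 median was -0.47 for KO over WT in PBS and -0.0705 with C. albicans.

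Of the values that changed sign, 2 also passed: Itgb2 for KO over WT with C. albicans under upper-quartile scaling (adjusted p = 0.0418) and the Itgal interaction without WT C. albicans replicate 1 (adjusted p = 0.0255). Itgb2 for KO over WT in PBS was 0.051 with median-ratio scaling, 0.026 with upper-quartile scaling, 0.031 with the length trend removed and 0.050 with voom; with C. albicans it was 0.054, 0.074, 0.0505 and 0.053 in that order, and -0.023 to 0.0014 over left-out libraries. Itgb1 for KO over WT in PBS was 0.020 with the length trend removed, and Itga5 was -0.017 to 0.032 over left-out libraries. Itga6 for KO over WT with C. albicans was 0.048 with the length trend removed and -0.25 to 0.033 over left-out libraries. For C. albicans in WT, Itgam was 0.063 with median-ratio scaling, 0.018 with the length trend removed, 0.064 with voom and -0.031 to 0.0064 over left-out libraries, and Itgal was -0.021 to 0.33. For C. albicans in KO, Itgax was 0.0081, 0.0007 and 0.028 under those 3 settings and -0.10 to 0.043 over left-out libraries. The Itgal interaction was -0.012 with median-ratio scaling, -0.011 with voom and -0.20 to 0.15 over left-out libraries.

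No pairing by the replicate numbers in the titles was seen, though a weak one could be missed. The correlation of deviations between libraries of the same number was -0.055 to 0.087. With a replicate block the chains called numbered 7, 7, 8, 3 and 4 for KO over WT in PBS, KO over WT with C. albicans, C. albicans in WT, C. albicans in KO and the interaction, and the added call was Itga6 for C. albicans in WT (-0.29, adjusted p = 0.0301).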

Other observations

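Of 17 other integrin chains, 14 never reached the level tested, with at most 0.558 TPM in any library, and 3 were tested. Itgb7, a beta chain that pairs with the Itga4 product, averaged 92.3 TPM in KO with C. albicans, 128 in KO with PBS, 74.7 in WT with C. albicans and 104 in WT with PBS. It was higher in KO than in WT with PBS (log2 fold change 0.30, adjusted p = 4.8e-04) and with C. albicans (0.30, adjusted p = 2.6e-04), and fell with C. albicans in KO (-0.47, adjusted p = 2.8e-05) and in WT (-0.47, adjusted p = 6.0e-06), while Itga4 was lower in KO with either treatment. Itga9, an alpha chain that pairs with Itgb1, was lower in KO over WT with PBS (-0.55, adjusted p = 9.7e-05), and fell with C. albicans in WT (-0.41, adjusted p = 4.6e-04), with an interaction of 0.60 (adjusted p = 0.00158). Itgb3, the platelet and osteoclast beta chain, averaged 1.08 to 1.52 TPM and passed in none of the comparisons in limma. Within libraries Itgb5 was 3.01 ± 0.0776 times Itgav in KO with C. albicans, 3.76 ± 0.155 times in KO with PBS, 1.77 ± 0.271 times in WT with C. albicans and 3.42 ± 0.338 times in WT with PBS (SD, n = 3 each).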
